A study of Mus musculus with 2 samples.

Results

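The genes described here are 10 transcription factors and cofactors of the B lymphocyte lineage, Ebf1, Pax5, Ikzf1, Ikzf3, Tcf3, Bach2, Pou2af1, Pou2f2, Lef1 and Bcl11a. They were chosen by name, as every transcript row whose gene name in the files is one of these symbols, which gave 35 of 44170 rows and 10 of 24171 genes. The cells were LT-HSCs, long-term stem cells of the blood, which are rare marrow cells that sustain blood formation, and they were sorted from marrow of 8-week-old C57BL/6 mice in specific-pathogen-free housing. The knockout animals lacked the circular RNA cia-cGAS, and the wild-type animals had it intact. Each group has 1 single-colour NimbleGen array, so no difference below has a replicate check, no test between groups was possible and every value describes these 2 samples. The sources used here do not say whether animals were pooled, how many cells were sorted or which surface markers the sort used.

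B cells arise from multipotent progenitors through a chain of transcription factors. E2A, encoded by Tcf3, and Ikaros, encoded by Ikzf1, act already in progenitors, and E2A together with signals from the interleukin-7 receptor turns on Ebf1. EBF1 opens the B cell programme and activates Pax5, and PAX5 then fixes the choice by activating B cell genes and repressing genes of other lineages. Aiolos (Ikzf3), OCT2 (Pou2f2) and its coactivator OCA-B (Pou2af1) act mainly later, in dividing pre-B cells and in mature B cells. Stem cells are known to carry little mRNA of the committed B cell factors.

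Values are RMA intensities on the log2 scale unless stated otherwise, and a difference is knockout minus wild type. Smell, vomeronasal and taste receptor genes, with 1029 rows, served as unexpressed genes, and the 95th percentile of their values was taken as the detection floor of an array. It lay at 8.97 in the knockout and 9.11 in the wild type. Where a row passed the floor on 1 array alone, the value above it was set against the opposite array's floor, and the text gives the result as at least that fold. Of 16 genes measured from a list of LT-HSC identity genes, 9 passed the floor in the knockout and 9 in the wild type. The list also holds Cd34 and Cd48, which mark later progenitors rather than LT-HSCs, and both passed the floor on both arrays. The surface receptor genes Procr and Slamf1 were under it on both, whereas Kit and Ly6a, the gene of Sca-1, passed it on both. The circular RNA itself was matched to no row, so its loss was not checked here. Neutrophil genes were bright on both arrays, with 12 of 12 above the floor in each. Bright too were genes best known from lung, among them Cbr2, Cyp2f2 and Ager, with means over both arrays of 15.08, 15.01 and 14.68. Where these transcripts came from was not tested.

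The B lineage factors were lower in the knockout than in the wild type. From the brightest row of each gene, 9 of the 10 passed the floor on either array. Of these 9, 6 were at least 2-fold lower and 0 at least 2-fold higher. Among all 10856 genes above the floor on either array, 4.06% were at least 2-fold lower and 5.54% at least 2-fold higher. Above the floor were 4 of the 10 in the knockout and 9 in the wild type. Of the 9857 genes above the floor in the wild type, 6.25% were under it in the knockout. Factors that passed only in the wild type had to be lower in the knockout, so the same was counted with no floor. Then 6 of 10 had a difference of -1 or less, against 5.92% of all 24171 genes, and 0 had a difference of 1 or more, against 5.82%. All 10 differences were negative, against 52.9% of all genes. They include Bcl11a, at -0.14 and under both floors, and Ikzf1, at -0.43 with another row at 0.09. The median over all 10 was -1.65, and over all genes it was -0.04.

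Row by row, 33 of the 35 rows were lower in the knockout, against 51.6% of all rows, and 17 had a difference of -1 or less, against 6.02% of all rows. Rows of a gene were read on the same 2 arrays, and many are placed on overlapping transcripts, so they are no replicates. Passing the floor on both arrays were 11 rows, 11 passed in the wild type alone, 0 in the knockout alone and 13 on neither. Of the 22 rows above a floor, 10 were at least 2-fold lower and 0 at least 2-fold higher, against 3.82% and 6.14% of all such rows.

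**Figure D1:**
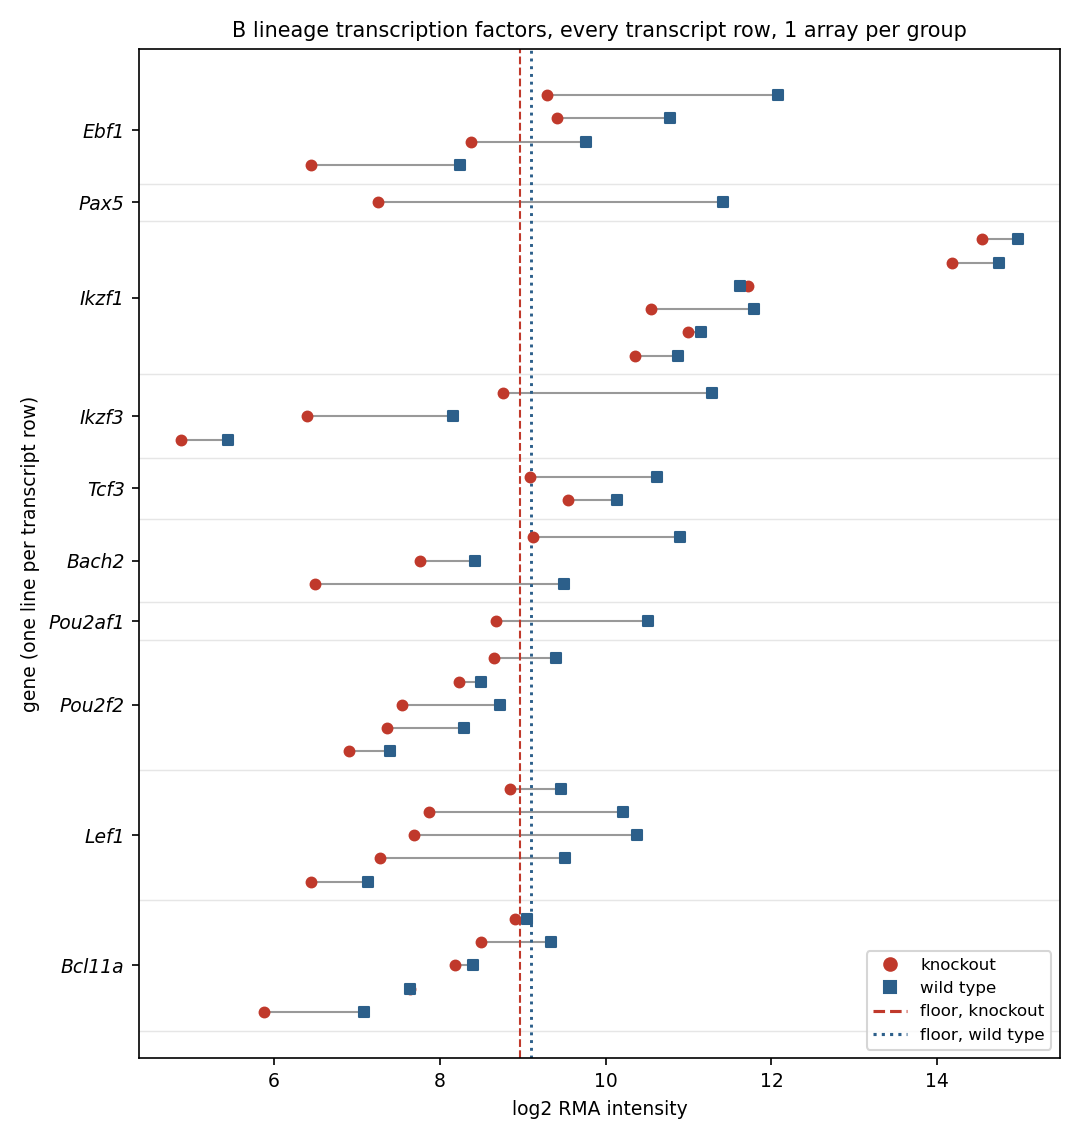
Log2 RMA intensity of all 35 rows of the 10 genes, with knockout circles and wild-type squares joined by a line for each row and the floors of 8.97 (knockout, dashed) and 9.11 (wild type, dotted) as vertical lines. The knockout value lies left of the wild-type value in 33 of the 35 rows.

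Ebf1 encodes early B-cell factor, the factor that starts the B cell programme. Its brightest row read 630 intensity units in the knockout and 4339 in the wild type, which is 9.30 against 12.08 on the log2 scale, or 6.89-fold lower (gene ID 13591, MM9 chromosome 11 from 44431635 to 44818674). The next row over the same interval read 9.41 in the knockout and 10.78 in the wild type, a 2.57-fold lower level. Another row read 8.38 in the knockout, under the floor, and 9.77 in the wild type, at least 1.74-fold lower. The last row, placed on the first part of the gene up to 44460322, was under both floors, at 6.44 in the knockout and 8.25 in the wild type. All 4 rows were lower in the knockout, and in the 2 brightest the knockout value was just above the floor.

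Pax5 encodes the factor that commits cells to the B lineage. Its only row read 153 intensity units in the knockout and 2723 in the wild type, or 7.25 against 11.41 on the log2 scale (gene ID 18507, MM9 chromosome 4 from 44544379 to 45044662). The knockout value was well under the floor, so Pax5 was at least 5.45-fold lower, and the difference as measured was -4.16, the most negative of all 35 rows. With 1 row of 3 probes, no other row of Pax5 stands beside this value.

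Tcf3 encodes the E2A proteins E12 and E47, basic helix-loop-helix factors needed to start the B lineage. Its brighter row read 9.09 in the knockout and 10.62 in the wild type, 2.89-fold lower (gene ID 21423, MM9 chromosome 10 from 79872337 to 79896352). The other row, over the same interval, read 9.55 in the knockout and 10.14 in the wild type, a difference of -0.59. Both rows were lower and only the first reached 2-fold, so the size of the Tcf3 difference depends on the row.

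The promoter windows of Ebf1 and Pax5 are shown because these genes had the most negative differences of the 10. They run from 250 bases before to 50 after a start site, were taken from RefSeq on GRCm38.p6 and are written 5′ to 3′ on the strand of the gene, with matches to the motifs named below in capitals. RefSeq gives Ebf1 2 such windows, at chr11:44617850-44618149 and chr11:44619978-44620277 on the plus strand, and Pax5 1, at chr4:44710645-44710944 on the minus strand.
Ebf1 upstream window: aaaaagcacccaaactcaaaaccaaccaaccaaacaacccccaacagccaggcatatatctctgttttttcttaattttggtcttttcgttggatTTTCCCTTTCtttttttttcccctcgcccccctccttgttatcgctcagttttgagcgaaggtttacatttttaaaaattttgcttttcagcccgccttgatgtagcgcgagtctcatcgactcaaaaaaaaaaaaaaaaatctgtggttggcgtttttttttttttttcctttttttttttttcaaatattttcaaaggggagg
Ebf1 downstream window: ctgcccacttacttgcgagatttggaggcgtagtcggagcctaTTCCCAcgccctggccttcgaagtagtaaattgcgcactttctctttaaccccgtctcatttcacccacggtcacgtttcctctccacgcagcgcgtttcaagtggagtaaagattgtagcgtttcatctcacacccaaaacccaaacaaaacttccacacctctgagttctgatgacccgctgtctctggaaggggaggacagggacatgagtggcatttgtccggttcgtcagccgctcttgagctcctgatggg
Pax5 window: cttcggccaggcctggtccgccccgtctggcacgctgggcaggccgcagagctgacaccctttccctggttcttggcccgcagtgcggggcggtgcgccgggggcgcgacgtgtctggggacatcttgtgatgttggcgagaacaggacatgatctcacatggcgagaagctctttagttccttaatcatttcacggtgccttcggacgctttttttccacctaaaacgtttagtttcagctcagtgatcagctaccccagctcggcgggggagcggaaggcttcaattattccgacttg

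Windows were found for 9 of the 10 genes, 14 in all, with none for Ikzf3. Searched on both strands were the palindromic EBF motif, the E-boxes CAGCTG and CAGGTG, the octamer ATTTGCAT bound by OCT2, the Ikaros motif TGGGAA, the PU.1 motif GAGGAAGT and the interferon response motif. The EBF, octamer and PU.1 motifs were in 0 of the 14 windows, and 0.904%, 1.74% and 3.2% of all 32851 windows held them. The Ikaros motif was in 5 of the 14, in windows of Ebf1, Lef1 and Bcl11a, against 25.6% of all windows. The upstream Ebf1 window held the reverse complement of the interferon response motif, TTTCCCTTTC, from position -155, and 3.44% of all windows held that motif. Each E-box was in 1 of the 14 windows, both of Lef1, against 16.3% of all windows for CAGCTG and 20.2% for CAGGTG. The Lef1 windows overlap in part, so a single Ikaros motif can count in several. The Pax5 window held 0 of the motifs. These matches describe the letters in the windows and not binding.

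Among the Ikaros family, the B cell member differed more than the founding member. Ikzf3 encodes Aiolos, a zinc finger factor of pre-B and mature B cells. Its brightest row read 8.77 in the knockout, under the floor, and 11.28 in the wild type, at least 4.97-fold lower (gene ID 22780, MM9 chromosome 11 from 98328301 to 98380044). Its other rows were under both floors, at 6.41 and 4.88 in the knockout and 8.17 and 5.45 in the wild type. Ikzf1 encodes Ikaros, which acts from stem and progenitor cells onward, and all 6 of its rows passed both floors. Its brightest row read 14.54 in the knockout and 14.97 in the wild type, a difference of -0.43, or 1.35-fold lower (gene ID 22778, MM9 chromosome 11 from 11590179 to 11672929). Both values lie near those of the brightest rows of the arrays, 15.84 in the knockout and 15.89 in the wild type, where differences can be compressed. The other 5 rows differed from -1.25 to 0.09. The row at -1.25, 2.37-fold lower, read 10.54 in the knockout and 11.79 in the wild type and belongs to a transcript that ends at 11661427, before the end of the longer ones, while another transcript that ends at 11661428 differed by -0.51.

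Bach2 and Bcl11a encode repressors of progenitors and B cells. Bach2 restrains myeloid and plasma cell genes in B cells. Its brightest row read 9.12 in the knockout and 10.89 in the wild type, 3.41-fold lower (gene ID 12014, MM9 chromosome 4 from 32504409 to 32673083). Another row, placed from 32588477 to 32590626, read 6.50 in the knockout and 9.50 in the wild type, at least 1.45-fold lower, and the remaining row was under both floors, at 7.77 in the knockout and 8.43 in the wild type. Bcl11a, a zinc finger repressor needed for B cell development and for silencing of fetal globin, was near the floor. Its brightest row was under both floors at 8.91 in the knockout and 9.06 in the wild type. The single row that passed, in the wild type alone, read 8.50 in the knockout and 9.34 in the wild type, at least 1.30-fold lower, and the other rows were under both floors with differences from -1.20 to 0.00. No difference of Bcl11a can be read at this signal beyond that bound.

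The octamer factors differed in size. Pou2af1 encodes OCA-B, the coactivator that B cells use at octamer sites. Its only row read 8.68 in the knockout, under the floor, and 10.51 in the wild type, at least 2.92-fold lower (gene ID 18985, MM9 chromosome 9 from 51021824 to 51048184). Pou2f2 encodes OCT2, the octamer-binding partner of OCA-B. Its brightest row read 8.65 in the knockout and 9.40 in the wild type, at least 1.35-fold lower, and its other 4 rows were under both floors, with differences from -1.19 to -0.26. All 5 rows of Pou2f2 were lower in the knockout, but no row reached 2-fold with the floor applied.

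Lef1, a nuclear effector of Wnt signalling that promotes the survival and growth of pro-B cells, gave different sizes by row. Its brightest row read 8.85 in the knockout and 9.47 in the wild type, at least 1.41-fold lower, and belongs to a transcript placed from 130815714 to 130891000 on MM9 chromosome 3 (gene ID 16842). The 2 rows of the longest transcripts, which end at 130926694 and 130926249, read 7.70 and 7.87 in the knockout against 10.38 and 10.22 in the wild type. They were at least 2.66-fold and at least 2.38-fold lower. Another row, from 130815714 to 130926249, read 7.28 in the knockout and 9.51 in the wild type, at least 1.46-fold lower, and the remaining row was under both floors. Lef1 is therefore not among the 6 genes counted above, although 2 of its 5 rows were at least 2-fold lower. Counted by any row above a floor, a rule added after the values were seen, 8 of the 10 genes were at least 2-fold lower, against 4.92% of 10884 genes, and 0 were at least 2-fold higher, against 6.62%. Counted by every such row, 3 were, namely Pax5, Ikzf3 and Pou2af1, each with a single row above a floor, against 2.68%.

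Among the 9241 genes above the floor on both arrays, Ebf1 stood at place 3 from the most negative difference, Bach2 at place 42, Tcf3 at place 82 and Ikzf1 at place 1779. Of these 9241 genes, 4.19% were at least 2-fold lower and 5.38% at least 2-fold higher, and of the 4 factors among them 3 were lower and 0 higher. The characterised genes with differences below that of Ebf1 were the transporter gene Abcb4 (-3.27) and the histone gene H2bc8 (-2.93). Next above it came Ces2g (-2.71), Dut (-2.68) and Cd72 (-2.62), of which Cd72 is a B cell surface receptor gene. Nearest to the -2.78 of Ebf1 was Ces2g, 0.08 apart, a likeness over 2 arrays that rests on a single difference.

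**Figure D2:**
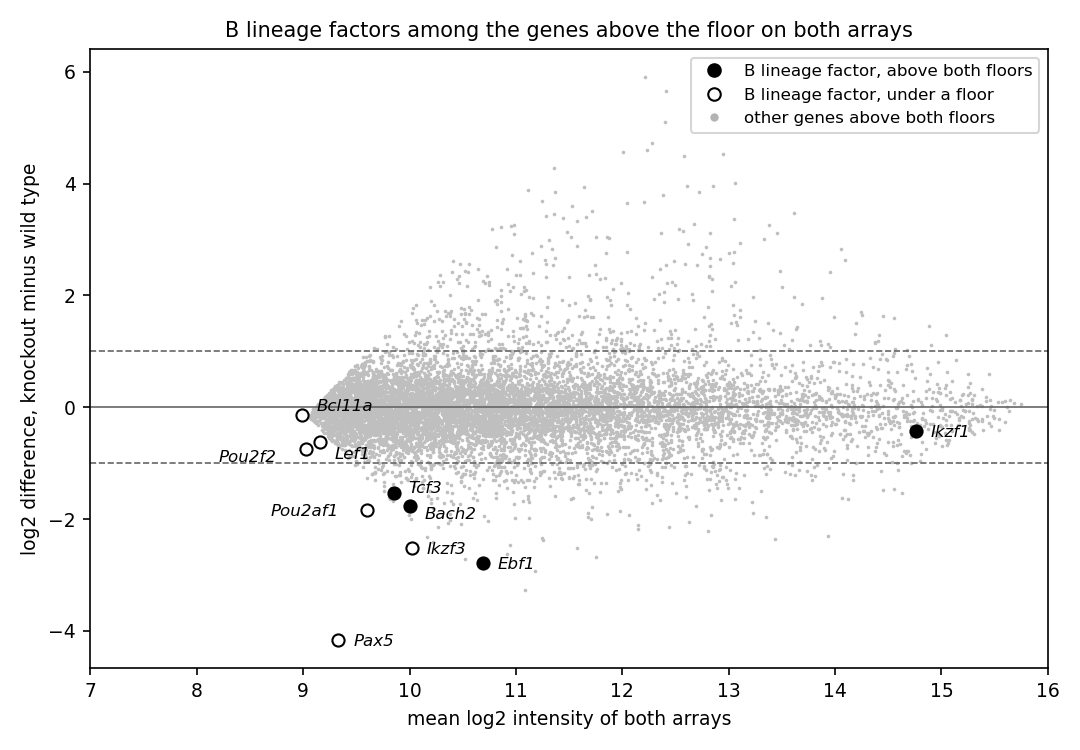
Log2 difference, knockout minus wild type, against the mean log2 intensity of both arrays, from the brightest row of each gene. Grey points are the 9241 genes above both floors, black points the 4 B lineage factors above both floors and open points the 6 under at least 1 floor. Dashed lines mark 2-fold, and Ebf1, Bach2 and Tcf3 lie at the lower edge of the grey points while Ikzf1 at -0.43 lies within them.

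Relatives from the same protein families did not have the same differences. With no floor, the median difference was -1.65 over the 10 B lineage factors, 0.21 over the 17 relatives and -0.04 over all genes. Under both floors were 9 of the relatives. Over genes above a floor alone, the median was -1.77 for 9 of the factors, 0.04 for 8 of the relatives and -0.02 for all genes. Of the 17 relatives, 8 passed a floor. Of these, 0 were at least 2-fold lower and 1 at least 2-fold higher, against 4.06% and 5.54% of all genes above a floor. The E proteins Tcf4 and Tcf12 differed by 0.08 and 0.00, against -1.53 for Tcf3, although the rows of Tcf12 ranged from -1.65 to 0.37. Bach1, a haem-regulated repressor related to Bach2, read 12.21 in the knockout and 11.06 in the wild type, 2.23-fold higher, and its 2 rows differed by 1.04 and 1.16. Pou2f1, the widely used OCT1 gene, differed by -0.48, with rows above a floor from -0.68 to 0.44. The Lef1 relatives Tcf7, Tcf7l1 and Tcf7l2 differed by -0.18, -0.50 and 0.21. Their rows above a floor ran from -0.81 to -0.18, from -0.50 to 0.23 and from -0.42 to 0.21. Ikzf2, the gene of Helios, passed the floor in the knockout alone at 9.12, against 8.60 in the wild type. All 5 EBF and PAX relatives measured, Ebf2, Ebf3, Ebf4, Pax2 and Pax8, were under both floors. Whether each gene differed from its relatives could not be tested with 1 array in each group.

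**Figure D3:**
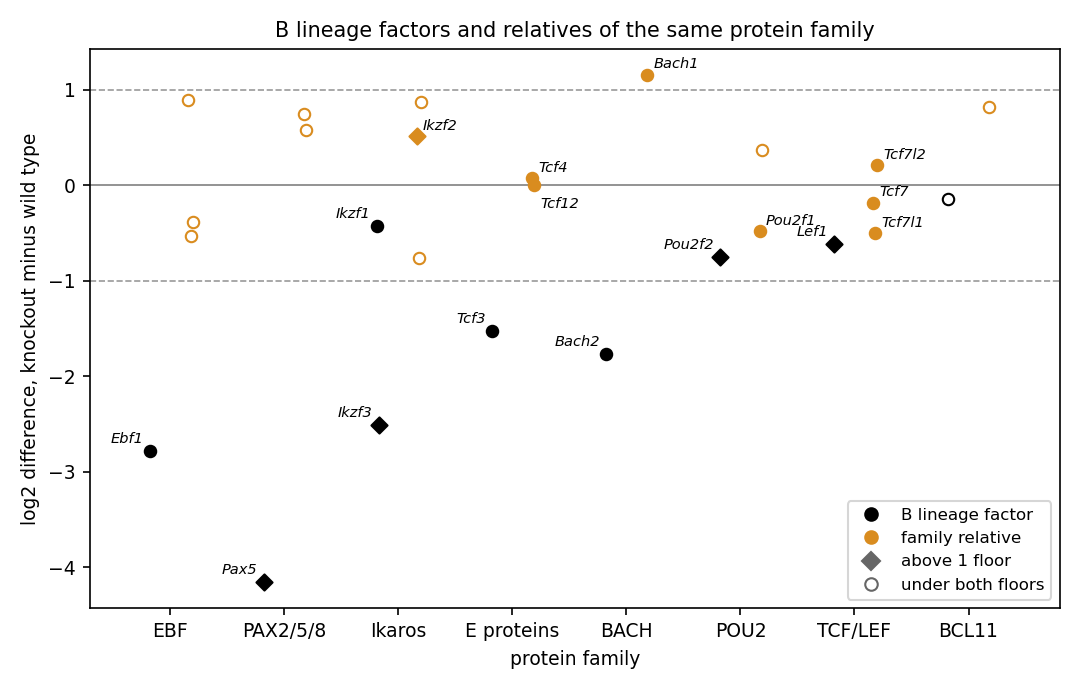
Log2 difference, knockout minus wild type, of the B lineage factors (black) beside relatives of the same protein family (orange), from the brightest row of each gene. Diamonds passed 1 floor and open circles neither, and Pou2af1, which has no relative in the list, is not drawn. The BACH family holds the widest gap among genes above both floors, from -1.77 for Bach2 to 1.16 for Bach1.

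Genes whose proteins inhibit or assist these factors had smaller differences. Of 15 measured, 12 passed a floor, with a median of 0.40, and 4 of the 12 were negative, against 51.6% of all genes above a floor. At least 2-fold lower were 0 and at least 2-fold higher 1, against 4.06% and 5.54% of all such genes. Id2, which encodes an inhibitor that holds E2A off DNA, read 12.53 in the knockout and 11.65 in the wild type, a difference of 0.88. The other inhibitors of this family, Id1 and Id3, differed by -0.68 and -0.09, Id1 passing the floor in the wild type alone. Zfp521, a zinc finger gene whose protein antagonises EBF1, differed by -0.03. Mafk, which encodes a small MAF partner of the BACH proteins, was 2.22-fold higher, with 11.60 in the knockout and 10.44 in the wild type, and Mafg differed by 0.58. Ctnnb1, the gene of the Wnt effector beta-catenin that binds LEF1, differed by 0.53, and the Ikaros partner Chd4 by 0.40.

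Upstream of the B lineage factors, the receptor gene Il7r read 9.34 in the knockout and 10.60 in the wild type, 2.40-fold lower. It was the only gene past 2-fold among 12 measured early lymphoid and multipotent progenitor factors. All 12 were above a floor, with a median of 0.08, and 4.06% of all genes above a floor were at least 2-fold lower. Spi1, the gene of the myeloid and lymphoid factor PU.1, had the highest difference of the 12, 0.77. Mef2c followed at 0.38, with rows from -1.04 to 0.38. Myb and Satb1 differed by -0.45 and -0.37, with rows above a floor from -0.45 to 0.05 and from -0.37 to 0.82.

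Genes that EBF1, E2A and PAX5 are known to activate were lower as well. All 19 measured had a negative difference, against 52.9% of all genes, and their median with no floor was -1.08. Of the 14 above a floor, 6 of which passed it in the wild type alone, 7 were at least 2-fold lower and 0 higher, against 4.06% and 5.54% of all genes above a floor. The median of the 14 was -2.13, or -1.05 when the floor replaced any value under it. Cd72 was 6.14-fold lower and the 3 of its rows above a floor differed from -2.89 to -2.52. Tnfrsf13c, the gene of the BAFF receptor, read 10.08 in the knockout and 12.44 in the wild type, and Dntt, the gene of the polymerase that adds bases at V(D)J joints, 9.01 and 11.32. Ms4a1, which encodes CD20, and Cd79b, a signalling chain of the B cell receptor, were 4.39-fold and 3.74-fold lower. Rows disagreed for Tnfrsf13c, at -2.37 and -0.80, and for Ms4a1, at -2.14 and -0.64, while Dntt and Cd79b had a single row. Surrogate light chain genes Vpreb1 and Vpreb2 were at least 2.17-fold and at least 2.82-fold lower. Foxo1 and Cd24a, which many other cells use, differed by -0.36 and -0.04. Rag1 was not analysed here.

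Genes that PAX5 is known to repress in B cells had a median of 0.46 over the 7 of 9 measured that passed a floor. At least 2-fold higher was 1 and at least 2-fold lower 0, against 5.54% and 4.06% of all genes above a floor. The gene past 2-fold was Jchain, the joining chain of secreted antibodies, at 12.76 in the knockout and 9.92 in the wild type. Xbp1, Ccr2 and Csf1r differed by 0.81, 0.59 and 0.46, and Notch1 by -0.60. Rows disagreed for Xbp1, at 0.81 and 0.18. Jchain, Xbp1 and Sdc1 are also in the list of plasma cell factors described below. Ccr2 and Csf1r are also monocyte genes, and the 6 monocyte markers, these 2 included, summed to 11726 intensity units in the knockout and 6800 in the wild type. With no floor the median of the PAX5-repressed genes was 0.07.

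Markers of B cells were lower beside the B lineage factors. Of 9 B lineage markers measured, 4 passed the floor in the knockout and 6 in the wild type, and their intensities summed to 3841 in the knockout and 12196 in the wild type. Cd79a and Igll1 were among those under both floors, Cd79a at 8.12 in the knockout and 9.06 in the wild type. T cell markers summed to 7774 in the knockout and 7569 in the wild type, with 8 and 5 of 12 above the floor. LT-HSC markers, Cd34 and Cd48 included, summed to 36920 in the knockout and 34693 in the wild type. Neutrophil markers summed to 248098 in the knockout and 183268 in the wild type. Erythroid markers summed to 83673 in the knockout and 103371 in the wild type, most of it from the globin genes Hba-a1 and Hbb-b1, which differed by -0.18 and -0.21. Erythroid genes were lower beside the B lineage factors too, with all 9 above a floor negative, against 51.6% of all genes above a floor. Their median was -0.88, or -0.70 with no floor. At least 2-fold lower were 3 of the 9, against 4.06% of all genes above a floor. These 3 were the membrane skeleton genes Ank1, 4.19-fold, and Sptb, at least 3.44-fold, and the anion exchanger gene Slc4a1, 2.95-fold. In these bulk samples fewer B lineage cells and less of these mRNAs per cell cannot be told apart, and the part of any other cell type in the differences was not tested. On the same 2 arrays the type I interferon-stimulated genes had a median of 3.31, and DNA replication genes one of -0.59. All 11 interferon-stimulated genes were at least 2-fold higher, against 5.54% of all genes above a floor.

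**Figure D4:**
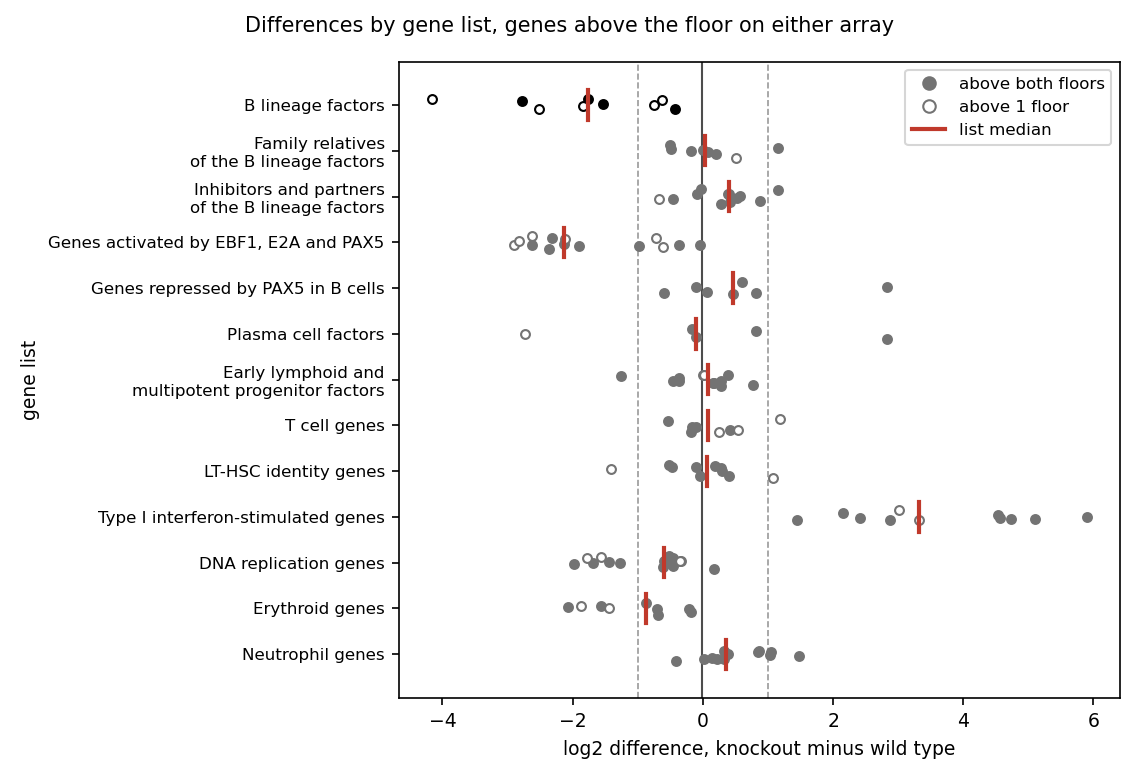
Log2 difference, knockout minus wild type, of each gene above the floor on either array, by gene list, with red bars at the list medians, filled points above both floors and open points above 1. The B lineage factors (-1.77) and the genes activated by EBF1, E2A and PAX5 (-2.13) lie furthest left, but 5 of the 9 and 6 of the 14 passed the floor in the wild type alone, and with no floor the medians were -1.65 and -1.08. The solid line marks the median of all genes, -0.02.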

How the data were processed

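Single-colour (Cy3) NimbleGen arrays of oligo dT-primed cDNA were compared, 1 of knockout and 1 of wild-type LT-HSCs, grouped by the genotype label. The authors deposited linear-scale intensities, made with RMA per the submitters' processing notes, with no version given. RMA as generally defined makes the distributions of arrays alike, so differences are relative to other genes. The sources used here do not say whether both arrays were normalized jointly. Each of the 35 rows described comes from 3 probes, per the file headers. Rows are placed on MM9 in the files, and whether positions count from 0 or 1 is not stated.

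Intensities were put on the log2 scale with Python 3.11.15 and pandas 2.3.3, with no further normalization. Of 44170 rows, 41886 carried a gene name, and symbols were updated by ID from a RefSeq table of GRCm38.p6, which held the ID of 39057. The row with the highest mean log2 value of both arrays stood for a gene. With 1 array in each group no test was run, and counts use a difference of 1 on the log2 scale, measured or as a bound. The counting was checked on simulated data in which the changed genes were set well above the floor. That check did not cover changed genes that fall under the floor on 1 array. Every row of the 10 factors is described. From other lists up to 3 of the highest and lowest genes above a floor could be named. In the lists of relatives, inhibitors and partners, activated and repressed genes, any gene above a floor could be. Procr, Slamf1, members under both floors and the lung genes Cbr2, Cyp2f2 and Ager were named after their values were seen. The members and lists were chosen with earlier results of these data known. Alternatives were other floors, other row rules, loess centring (span 0.3), the series-wide table, folds of 1.5 and 3, floor-set values and means. The number of arrays limits the precision.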

Additional observations from a re-analysis of the deposited data

How the results depend on the processing

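No paired analysis was possible because each group has 1 array, and for the same reason no array could be left out. The count of B lineage factors at least 2-fold lower, 6, became 3 (Ebf1, Pax5 and Ikzf3) with the floor at the 99th percentile of receptor rows and 3 when every row above the floor had to pass, a rule added after seeing the data. It was 4 with rows averaged or at 3-fold, 5 from the row with the smallest difference and 8 by any row, and 6 under the other planned settings. The count higher stayed at 0 in each planned setting. The median of the factors ran from -1.83 to -1.55 apart from -1.11 with the row of smallest difference. Ebf1 then differed by -1.36 and Tcf3 by -0.59, and Ikzf1 turned to 0.09. With rows averaged, Lef1 differed by -1.71. Over all genes, 441 were lower, but 291 with the stricter floor, 1432 with none, 238 with rows averaged, 292 when every row had to pass, 1338 at 1.5-fold and 84 at 3-fold. The 601 higher became 1407 with no floor, 1257 at 1.5-fold and 281 at 3-fold. The median of the genes activated by EBF1, E2A and PAX5, -2.13, was -1.59 with rows averaged and -1.04 from the row of smallest difference. That of the plasma cell factors, -0.10, turned to 0.81 with the stricter floor, 0.23 with rows averaged and 0.02 from the row of smallest difference. The cause of each shift was not tested. Signal near background limits Bcl11a, Pou2f2 and the knockout values of Pax5, Ikzf3, Pou2af1 and Lef1. The knockout values of Ebf1, Bach2 and Tcf3 were just above the floor and under the stricter one, so their folds are limited by it as well.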

Other observations

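Factors of plasma cells, the antibody-secreting end of the B lineage, had differences in both directions. Of 7 measured, 5 passed a floor, and the median was -0.10, a value whose sign turned under other settings. At least 2-fold higher was 1 and at least 2-fold lower 0, against 5.54% and 4.06% of all genes above a floor. Irf4, a factor of B cell activation and plasma cells, passed the floor in the wild type alone, with 7.12 in the knockout and 9.85 in the wild type, at least 1.85-fold lower. Prdm1, which encodes the plasma cell repressor BLIMP1, differed by -0.16 and Sdc1, the gene of the plasma cell surface protein CD138, by -0.10. Jchain was 7.14-fold higher, and Mzb1 and Tnfrsf17, further plasma cell genes, were under both floors.

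T cell genes had a median of 0.07 over the 8 of 12 measured that passed a floor. Past 2-fold were 0 in either direction, against 4.06% lower and 5.54% higher among all genes above a floor. Cd8a passed the floor in the knockout alone, at 9.41 against 8.23 in the wild type, at least 1.24-fold higher. The T cell receptor signalling gene Lat had the lowest difference, -0.54, and Cd3e differed by -0.16.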
